A study of Mus musculus with 9 samples.

Results

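Liver X receptors (LXRs) are nuclear receptors that sense oxidised cholesterol (oxysterols), and 9 genes of their system were followed here in mouse splenic dendritic cells. They are the receptors Nr1h3 (LXR alpha) and Nr1h2 (LXR beta), a dimer partner of theirs, Rxra, and the target genes Mylip, Abca1, Abcg1, Apoe, Srebf1 and Lpcat3. The genes were chosen by name. Mylip was chosen because its level was low in cells lacking Batf and Batf3, and the others because they belong to the same system, to see whether LXR targets in general were low there. Mylip's difference between genotypes is therefore a description and carries no test. For each gene the transcript cluster (the probes of 1 gene locus) carrying only its symbol and having the highest mean was taken. Of the 9 genes, 8 had such a cluster, among 19938 genes with one. Nr1h2 had none, so its level was not analysed here. The clusters of Abca1 and Rxra stayed below the brightness minimum in every group, which left 6 members among the 10728 genes tested.

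The study measured RNA on 9 Affymetrix gene arrays from sorted conventional dendritic cells (cDC) of the spleen of 129SvEv/Tac mice. BATF and BATF3 are transcription factors of the AP-1 family that act with IRF4 and IRF8 in dendritic cells. The groups were activated cDC2 of Batf-/- Batf3-/- double-knockout mice (DKO, 2 arrays), activated wild-type (WT) cDC2 (2 arrays), resting DKO cDC2 (2 arrays), resting WT cDC2 (2 arrays) and resting WT cDC1 (1 array). Activation was 1 h in IFN-gamma (100 ng/ml), followed by 3 h with LPS of E. coli (1 µg/ml) added; what resting cells were kept in is not stated. No cell-type driver is named for either deletion, so a difference that arose in the cDC2 cannot be told apart from one that arose elsewhere in the mouse. Nothing in the labels ties the arrays of a group to different animals, and the spread behind the p-values may thus be technical.

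LXRs bind DNA as dimers with RXR. With an oxysterol bound they switch on genes that move cholesterol out of the cell, remodel phospholipids and feed fatty acid synthesis. They also switch on Mylip, whose protein (also called IDOL) tags lipoprotein receptors for destruction and so limits cholesterol uptake. The opposite arm is run by SREBP2, which switches on cholesterol synthesis when sterol is scarce. Macrophages use the system heavily, and in mouse macrophages activation of toll-like receptors is known to restrain several LXR targets.

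Labels and depth were checked first. Batf stood at log2 levels of 5.31 to 5.44 on the 4 DKO cDC2 arrays, below the brightness minimum of 5.94, against 6.74 to 9.07 on the 4 WT cDC2 arrays. Batf3 stood at 6.43 to 7.17 in DKO, against 7.58 to 9.92 in WT. All 9 cDC1 markers stood higher on the cDC1 array than in resting WT cDC2, and 6 were called (limma, adjusted p below 0.05). Of the 9, 3 (Xcr1, Clec9a and Itgae) were above the minimum only on that array. All 7 tested cDC2 markers stood lower there, and 6 were called. Of all genes tested, 7.08% were called higher and 6.56% lower there. The cDC2 markers Clec4a4, Clec10a and Cd209a were below the minimum everywhere. A set of 7 interferon-stimulated genes averaged 9.43 and 9.30 in resting DKO cDC2, against 10.17 and 11.33 in resting WT cDC2. Replicate 2 of resting WT cDC2 stands apart from its partner, and results that rest on it are given without it.

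The promoter of Mylip is shown because it is the gene whose level differed, and that of Lpcat3 because it is the member that stood above WT in DKO cells in both states. Sequences are from RefSeq on GRCm38.p6, and 8 members had a promoter entry, in 14 windows. The 250 bases before each start were searched on both strands, except that the TATA motif was read on the gene's strand only. Abcg1 had no promoter entry and was not searched. Nr1h2, which has no level here, was among the 8. The Mylip stretch is chr13:45389640-45389735 on the plus strand, with a TATA motif (TATAAA) in capitals 32 to 27 bases before the start. The Lpcat3 stretch is chr6:124662913-124663012 on the plus strand, with an ETS-IRF composite motif (EICE, GGAANNGAAA), read on the other strand, in capitals 146 to 137 bases before the start.
Mylip: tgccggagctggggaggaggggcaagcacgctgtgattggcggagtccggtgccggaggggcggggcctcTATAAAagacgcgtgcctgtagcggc
Lpcat3: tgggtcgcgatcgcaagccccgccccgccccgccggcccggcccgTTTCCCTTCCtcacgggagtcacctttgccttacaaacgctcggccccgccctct
No member window held the LXR:RXR direct repeat known as DR4 (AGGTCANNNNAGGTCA), which 0.0152% of all 32851 windows held. None held the AP-1 motif TGANTCA, found in 6.75% of windows, or either AP-1-IRF composite (AICE), TTTCNNNNTGANTCA in 0.0974% and GAAATGANTCA in 0.1% of windows. Both AICE forms contain the AP-1 motif. The TATA motif was also in the windows of Abca1 and Apoe and in 7.59% of all windows, and the EICE motif was in 2.3%. A match is a description of letters in these windows, and LXR sites are often distal to the start.

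Mylip was lower in DKO cDC2 in both states. In activated cells its log2 level was 9.02 and 9.47 in DKO cDC2, against 10.68 and 10.56 in WT cDC2. In resting cells it was 10.22 and 10.62 in DKO cDC2, against 11.60 and 11.55 in WT cDC2. The genotypes did not overlap in either state. DKO minus WT was -1.38 ± 0.19 (SE) in activated cells and -1.16 ± 0.19 in resting cells, or 0.385 and 0.448 times the WT level on the linear scale. Without WT resting replicate 2 the resting difference was -1.18. These values describe the choice of Mylip and are not tested. In bulk RNA, fewer cells making a transcript and less of it in each cell cannot be told apart.

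Mylip was also lower in activated than in resting cells. An effect of IFN-gamma and LPS and one of the time in culture cannot be told apart here or in any activation difference, since how resting cells were kept is not stated. In DKO cells the activated arrays (9.02 and 9.47) lay below the resting ones (10.22 and 10.62), and in WT cells the activated arrays (10.68 and 10.56) lay below the resting ones (11.60 and 11.55). The mean of the 2 activation differences was -1.07 ± 0.14 (limma, adjusted p = 0.00324), a contrast that does not reuse the genotype difference. The 2 single differences were -1.17 ± 0.19 in DKO and -0.96 ± 0.19 in WT cells, and their difference was -0.22 ± 0.27 with a 95% interval of -0.87 to 0.44. The cDC1 array had the highest level, 12.09, which is 0.51 ± 0.23 above resting WT cDC2. In order, the levels ran from cDC1 through resting WT, activated WT and resting DKO to activated DKO cDC2. Activated WT and resting DKO overlapped, so those neighbours do not differ beyond their spread.

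**Figure D1:**
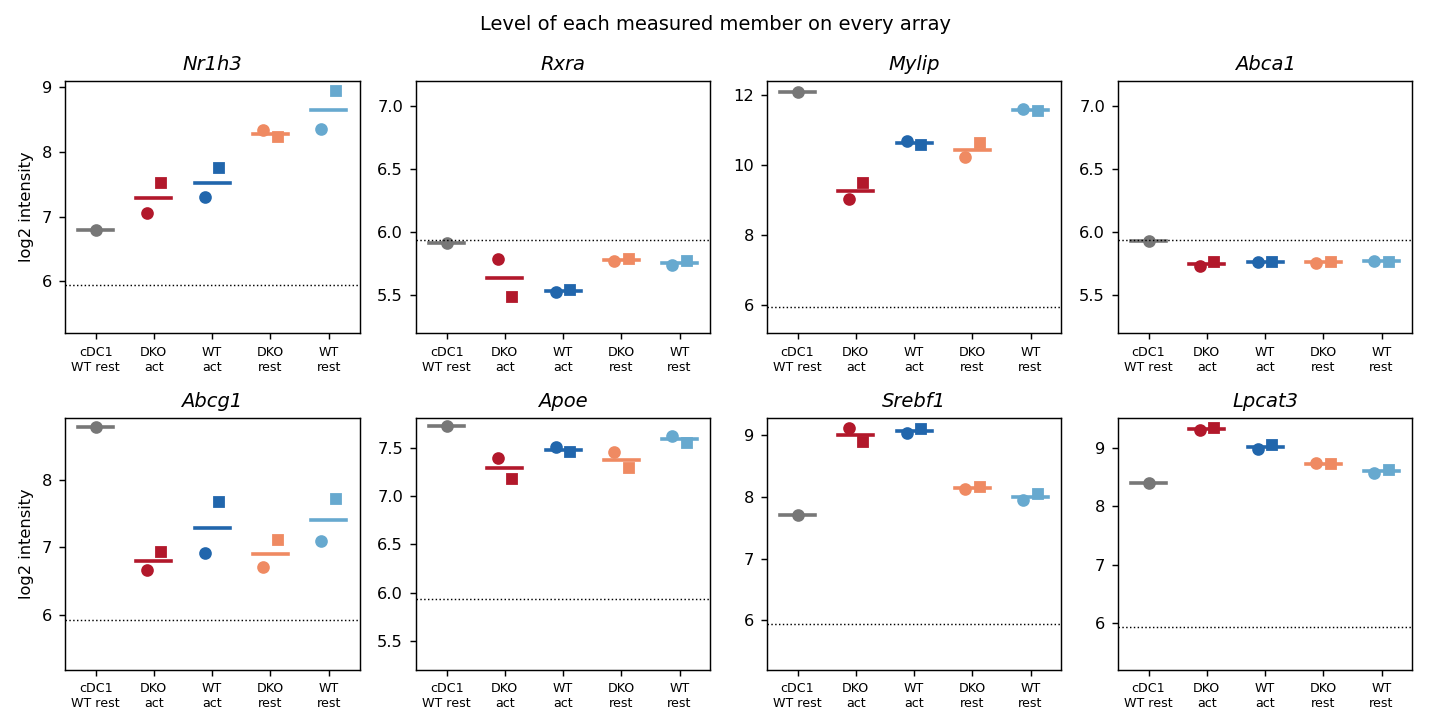
Log2 intensity of the 8 measured members on every array (circles replicate 1, squares replicate 2), with group means as bars and the brightness minimum of 5.94 as a dotted line; vertical scales differ between panels. Mylip separates DKO from WT cDC2 in both states, Srebf1 and Lpcat3 stand higher and Nr1h3 lower in activated than resting cDC2, and Rxra and Abca1 lie below the minimum throughout.

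The other members were then compared between the genotypes. None of the 5 other tested members passed the threshold (adjusted p below 0.05 over all genes tested) in resting cells, in activated cells or in the mean of both states, in the fit without a replicate block. In each of these 3 comparisons limma called 2 of 10728 genes, or 0.0186%. The deleted genes themselves were not called in this fit. In the mean of both states Batf stood at -2.21 ± 0.39 (adjusted p = 0.126 by limma) and Batf3 at -1.66 ± 0.32 (adjusted p = 0.148). The lack of a call thus does not show that a gene is unchanged. With replicate number as a block, 2.98% of genes were called higher and 2.6% lower in the mean of both states. The calls this adds to the lists taken up below are given beside each. Among other lists, the block called lower 2 of 7 cDC2 markers, Cd4 (-0.67) and Mgl2 (-0.91). Also called lower were 2 of 6 cDC1 markers, Batf3 and Cadm1 (-1.02), and 2 of 7 interferon-stimulated genes, Ifit2 and Rsad2. Of 6 genes common to dendritic cells, 1 was called higher, Flt3 (0.44), and 0 lower. The 2 genes called without the block were Tgfbi and Tgoln1, both lower in DKO (-1.79 ± 0.08 and -1.51 ± 0.07 in the mean of both states). They are named here after their values were seen. At an unadjusted p below 0.05 there were 0 of the 5 other members in resting cells, 1 in activated cells (Lpcat3) and 2 in the mean of both states (Lpcat3 and Apoe), against 707, 638 and 1157 of all genes. The median of the 5 members' differences was -0.21 in resting cells, -0.19 in activated cells and -0.20 in the mean, against 0.01 for all genes in each. The members other than Mylip did not share one direction: 3 were below 0 and 2 above in the mean of both states. With 2 arrays per group these tests leave wide intervals, which are given with each gene.

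Nr1h3, the one LXR receptor measured, had levels of 7.05 and 7.52 in activated DKO cDC2, against 7.31 and 7.75 in activated WT cDC2. In resting cells the levels were 8.34 and 8.23 in DKO, against 8.35 and 8.95 in WT. The genotypes overlapped in activated cells, and in resting cells the nearest arrays were almost level. DKO minus WT was -0.30 ± 0.18 in the mean of both states (adjusted p = 0.623 by limma, 95% interval -0.75 to 0.14). Without WT resting replicate 2 the resting difference was -0.07, against -0.37 with it. Rxra, an RXR with which LXRs bind DNA, lay between 5.48 and 5.79 in cDC2 and at 5.92 in cDC1, and was not tested. Its paralog Rxrb was above the minimum and is taken up below.

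Abcg1, which passes cholesterol to high-density lipoprotein, came closest to Mylip in the size of its difference. Its levels were 6.67 and 6.93 in activated DKO cDC2, against 6.92 and 7.66 in activated WT cDC2. They were 6.71 and 7.11 in resting DKO cDC2, against 7.10 and 7.71 in resting WT cDC2. The groups overlapped in both states, and replicate 2 was the higher array in each group. DKO minus WT was -0.49 ± 0.22 in the mean of both states (adjusted p = 0.501 by limma, 95% interval -1.03 to 0.04). Blocked on replicate number, a pairing the labels do not state, the same mean difference was called (adjusted p = 0.0345 by limma), where 599 genes in place of 2 were called. DKO lay below WT in 4 of 4 same-numbered pairs, which are the pairs that the block uses. Apoe and Nr1h3 also lay below in 4 of 4 pairs, with 1 pair of Nr1h3 at -0.02. The share of all genes that did so was not counted. The resting difference of -0.50 ± 0.31 became -0.19 without WT resting replicate 2, and the activated difference of -0.49 ± 0.31 became -0.12 without WT activated replicate 2. Abca1, the other cholesterol exporter and a widely used LXR target, lay between 5.73 and 5.77 on all 8 cDC2 arrays and at 5.93 on the cDC1 array, so these arrays give no measure of its change.

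Apoe, the lipoprotein component that carries exported cholesterol, was slightly lower in DKO cDC2 without overlap, at 7.40 and 7.18 against 7.51 and 7.46 in WT when activated. When resting it was 7.46 and 7.30 in DKO against 7.63 and 7.55 in WT. The mean difference was -0.20 ± 0.08 (adjusted p = 0.437 by limma, 95% interval -0.40 to -0.01), or 0.868 times the WT level. Of all genes tested, 5.07% were lower in DKO without overlap in both states, and Apoe was the 1 member other than Mylip among them.

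Lpcat3, which puts polyunsaturated fatty acids into membrane phospholipids, lay the other way. Its levels were 9.31 and 9.35 in activated DKO cDC2, against 8.98 and 9.06 in activated WT cDC2. They were 8.75 and 8.73 in resting DKO cDC2, against 8.58 and 8.63 in resting WT cDC2. DKO lay above WT without overlap in both states, as 7.16% of all genes did. The mean difference was 0.22 ± 0.06 (adjusted p = 0.261 by limma, 95% interval 0.08 to 0.37).

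Srebf1, the transcription factor gene through which LXRs drive fatty acid synthesis, gave a mean difference between genotypes of 0.04 ± 0.08 (adjusted p = 0.895 by limma, 95% interval -0.14 to 0.23). When activated its levels were 9.12 and 8.88 in DKO against 9.03 and 9.10 in WT, and when resting 8.14 and 8.16 in DKO against 7.95 and 8.04 in WT. The genotypes overlapped when activated, and DKO lay above WT when resting. The differences between Mylip and the other members were not tested.

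**Figure D2:**
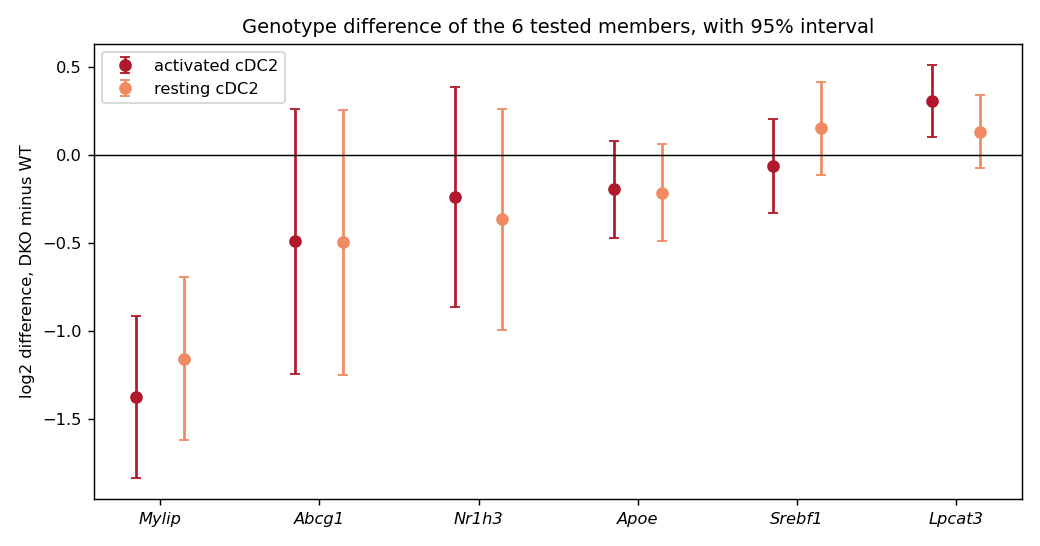
DKO minus WT log2 difference of the 6 tested members in activated (dark) and resting (light) cDC2, with 95% intervals from limma. Mylip lies at -1.38 and -1.16, and Abcg1, Nr1h3 and Apoe lie below 0 with intervals that reach above it. Lpcat3 lies above 0 in both states, with a resting interval that reaches below 0 (-0.07 to 0.34).

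Between activated and resting cells the members differed in both directions. In the mean of both genotypes 4 of the 6 tested members passed the threshold, with Srebf1 and Lpcat3 higher and Mylip and Nr1h3 lower. Of all genes tested, 10.6% were called higher and 21.7% lower. Srebf1 rose by 0.96 ± 0.08 on the log2 scale (adjusted p = 0.000992 by limma), 1.95 times the resting level. Its 4 activated arrays lay between 8.88 and 9.12, all above the 4 resting ones at 7.95 to 8.16. Lpcat3 rose by 0.50 ± 0.06 (adjusted p = 0.00276), with activated arrays at 8.98 to 9.35, all above the resting ones at 8.58 to 8.75. The receptor gene Nr1h3 fell by 1.06 ± 0.18 on the log2 scale (adjusted p = 0.00857), with activated arrays at 7.05 to 7.75, all below the resting ones at 8.23 to 8.95. These 4 calls also passed with any 1 array left out.

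Abcg1 and Apoe did not pass: their mean activation differences were -0.11 ± 0.22 (adjusted p = 0.722, 95% interval -0.65 to 0.42) and -0.10 ± 0.08 (adjusted p = 0.397, 95% interval -0.29 to 0.10). Both signs turn under quantile normalization, to 0.00490 and 0.0328. Within one genotype, Mylip apart, 2 members passed in DKO cells and 3 in WT cells. In DKO cells Srebf1 at 0.86 ± 0.11 and Lpcat3 at 0.59 ± 0.09 passed, where 5.82% of genes were called higher and 7.9% lower. In WT cells Srebf1 at 1.07 ± 0.11, Lpcat3 at 0.42 ± 0.09 and Nr1h3 at -1.12 ± 0.26 passed, where 3.97% were called higher and 6.57% lower. Nr1h3 in DKO cells stood at -0.997 ± 0.26 (adjusted p = 0.0529). The 3 calls in WT cells became 0 or 1 when any 1 array was left out, and the 2 in DKO cells became 0 to 3. The activation responses of the 5 members other than Mylip differed between DKO and WT by -0.21 to 0.18, and limma called none of them and 0 of all genes (0%; 121 genes and 0 members at an unadjusted p below 0.05).

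The cDC1 array was set against resting WT cDC2, with the lone array assumed to vary as the others do. Nr1h3 was lower in cDC1, at 6.79 against 8.35 and 8.95 in cDC2 (-1.86 ± 0.32, adjusted p = 0.0152 by limma). Abcg1 stood at 8.77 in cDC1, above every cDC2 array, with a difference of 1.36 ± 0.38 (adjusted p = 0.066). Nr1h3 was thus lowest where Mylip and Abcg1 had their highest level. Srebf1 at 7.71 and Lpcat3 at 8.40 lay below all cDC2 arrays and Apoe at 7.73 above them, without passing (adjusted p from 0.217 to 0.59). Of all genes, 7.08% were called higher and 6.56% lower in cDC1, against 0 and 1 of the 5 members other than Mylip.

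A list of 18 further LXR targets was examined for the same question. Of these, 10 were tested, and Abcg5, Abcg8, Apoc1, Mertk, Cd5l and Cyp7a1 were below the minimum. Scd1 and Mlxipl were above it only on the cDC1 array, which left 8 for cDC2. None of the 8 was called between the genotypes without the block. Their median difference in the mean of both states was 0.08, against 0.01 for all genes, with 6 targets above 0 and 2 below. The 2 below were Pltp and Smpdl3a. The largest above 0, Scd2 (1.01) and Fasn (0.38), are also driven by SREBP proteins, so the median does not speak for LXR alone. The others above 0 stood between 0.04 (Lpl) and 0.25 (Acaca). Under the block 4 of the 8 were called, Scd2 and Fasn higher and Pltp and Smpdl3a lower in DKO. Of all genes, 2.98% were called higher and 2.6% lower there. Smpdl3a, a secreted phosphodiesterase induced by LXR in human macrophages, stood at 8.70 and 8.67 in activated DKO against 8.98 and 9.16 in activated WT cells. When resting it stood at 8.17 and 8.44 in DKO against 8.68 and 8.70 in WT (mean difference -0.39 ± 0.09, adjusted p = 0.206, or 0.0347 under the block). Pltp, the phospholipid transfer protein, was at -0.73 ± 0.20 (adjusted p = 0.261, or 0.00483 under the block). Scd2, a fatty acid desaturase, was at 1.01 ± 0.32 (adjusted p = 0.317, or 0.00696 under the block), in the opposite direction.

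With activation 3 of the 8 further targets fell and 1 rose, against 10.6% of all genes called higher and 21.7% lower, and with so few genes nothing is read from these shares. Scd2 fell by 2.75 ± 0.32 on the log2 scale (adjusted p = 0.00261 by limma), with fatty acid synthase Fasn at -1.21 ± 0.15 and lipoprotein lipase Lpl at -0.70 ± 0.18, while Smpdl3a rose by 0.38 ± 0.09. Scd2 and Fasn are also driven by SREBP proteins, and they moved opposite to Srebf1. In cDC1, Pltp was lower than in resting WT cDC2 (-1.40 ± 0.35). The desaturase Scd1 stood at 6.11 on the cDC1 array and below the minimum on all 8 cDC2 arrays.

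Among 12 RXR paralogs and partner receptors, 5 were tested and none was called between the genotypes. The retinoic acid receptors Rara and Rarg had the smallest p there, at 0.63 ± 0.09 (adjusted p = 0.101) and 0.57 ± 0.10 (adjusted p = 0.126). Under the block both were called higher (adjusted p = 0.00844 and 0.017) and Pparg, a fatty acid receptor, lower (-0.46 ± 0.07, adjusted p = 0.025). The block called 2.98% of all genes higher and 2.6% lower. With activation 4 of the 5 fell, against 21.7% of all genes called lower, among them Rxrb, the RXR paralog above the minimum, at -0.49 ± 0.08, and Pparg at -0.93 ± 0.21. None of 12 tested LXR co-regulators was called between genotypes, with the block or without it. With activation 3 of them fell and 2 rose, close to the 21.7% and 10.6% of all genes, led by the corepressor subunit Tbl1xr1 at -0.83 ± 0.11 (adjusted p = 0.00373). Of 4 tested oxysterol enzymes none was called between genotypes or with activation. In cDC1, 2 of the 4 were called higher, against 7.08% of all genes. Cyp27a1, which makes 27-hydroxycholesterol, was higher there by 1.50 ± 0.18 and Hsd3b7 by 0.91 ± 0.15.

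Genes that MYLIP acts on or with were examined next. Vldlr was below the minimum. Lrp8, another lipoprotein receptor that MYLIP targets, rose with activation by 0.94 ± 0.08 (adjusted p = 0.00123 by limma), opposite to Mylip. Its activated levels were 9.94 and 9.85 in DKO and 9.87 and 10.07 in WT, its resting levels 8.89 and 8.68 in DKO and 9.18 and 9.25 in WT. Between the genotypes it stood at -0.25 ± 0.08 (adjusted p = 0.327). The ubiquitin-conjugating enzyme Ube2d1, with which MYLIP works, rose with activation by 0.47 ± 0.09. Protein levels of these receptors were not measured.

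The SREBP2 arm was taken as the counterpart of LXR, and 23 of its 28 genes were tested. Between the genotypes 21 of the 23 stood above 0 in the mean of both states, with a median of 0.34 against 0.01 for all genes, and none passed the threshold. Under the replicate block 9 of the 23 passed, all higher in DKO, against 2.98% of all genes. They were Idi1, Hsd17b7, Lss, Mvd, Mvk, Sqle, Fdps, Nsdhl and Stard4. Idi1, an isomerase of sterol synthesis, stood at 9.56 and 9.69 in activated DKO against 8.21 and 8.69 in activated WT cells. When resting it stood at 9.72 and 9.96 in DKO against 8.73 and 9.22 in WT. DKO lay above WT without overlap in both states (mean difference 1.02 ± 0.16, adjusted p = 0.109, or 0.00483 under the block). Hsd17b7, another enzyme of the path, was at 0.59 ± 0.08 (adjusted p = 0.0834, or 0.0126 under the block). Srebf2 itself was at 0.17 ± 0.07 and Insig1, the sterol-sensing retention protein, at 0.16 ± 0.10. Genes of 1 pathway share regulators and are not independent of each other.

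With activation 14 of these 23 genes fell and none rose, against 21.7% of all genes called lower and 10.6% higher. Mvd was at -1.48 ± 0.14 (adjusted p = 0.00145 by limma), Dhcr7 at -1.46 ± 0.14, Lss at -1.21 ± 0.18 and Cyp51 at -0.996 ± 0.11, all enzymes of cholesterol synthesis. Srebf2 fell by 0.49 ± 0.07. Of 7 tested genes of other cholesterol uptake and handling, the scavenger receptor Cd36 was above the minimum only on the cDC1 array. None of the other 6 was called between genotypes, and Npc1, which moves cholesterol out of lysosomes, had the smallest p (-0.48 ± 0.13, adjusted p = 0.261). Under the block Npc1, Lipa and Nceh1 were called lower, against 2.6% of all genes. With activation 3 of the 6 fell, led by the lysosomal acid lipase Lipa at -2.39 ± 0.26, and 1 rose, Stard3 at 0.74 ± 0.16. Of all genes tested, 21.7% were called lower and 10.6% higher.

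**Figure D3:**
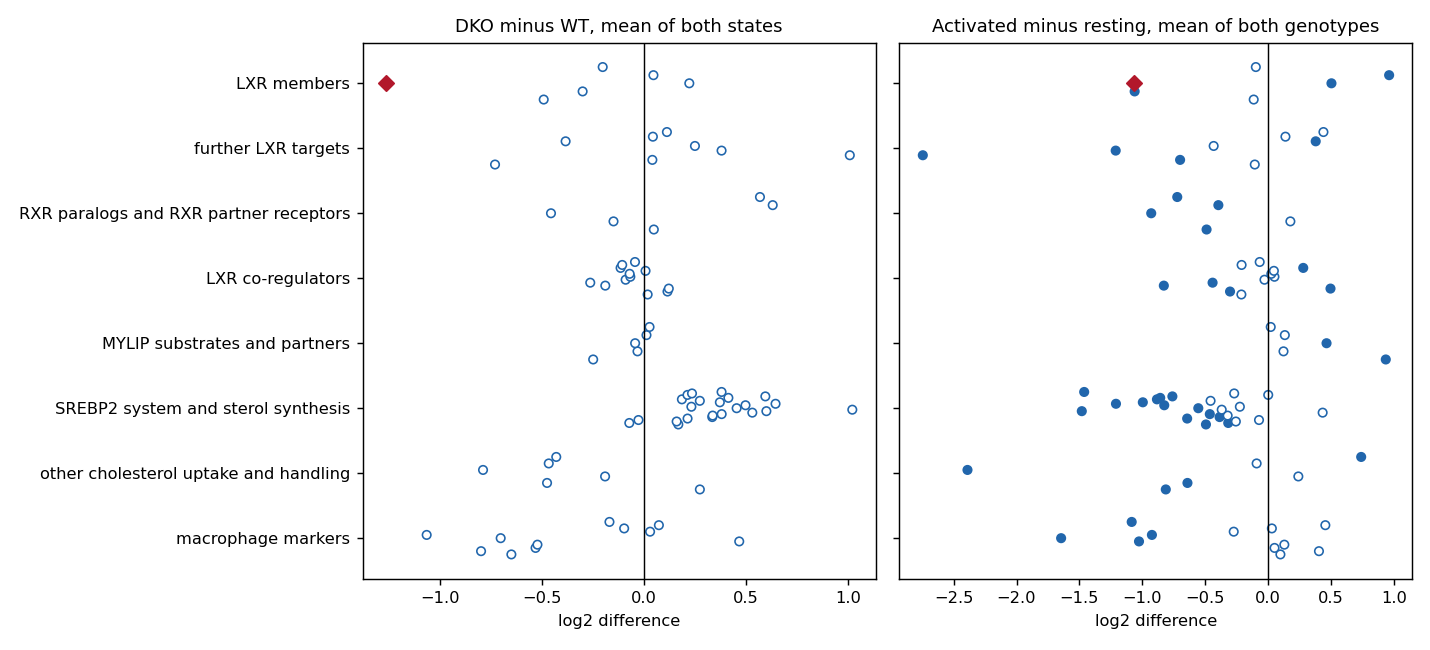
Log2 differences of the genes of each list that were above the minimum in a cDC2 group, for DKO minus WT (left, mean of both states) and activated minus resting (right, mean of both genotypes); filled points passed the threshold, open points did not, and the diamond is Mylip, which carries no test on the left. In the fit without a replicate block, which is plotted, no point is filled on the left, where the SREBP2 list has a median of 0.34, and on the right 14 of 23 SREBP2 genes are filled below 0.

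LXR targets and Mylip are also expressed by macrophages, so macrophage markers were read beside them. Of 14 markers 11 were tested, none was called between genotypes, and their median difference was -0.52, with 8 below 0 and 3 above. C1qb was at -0.80 ± 0.14 (adjusted p = 0.127) and C1qc at -0.53 ± 0.11 (adjusted p = 0.175). The 3 above 0 were Spic at 0.47, Timd4 at 0.07 and Adgre1 at 0.03, while Cd163, Marco and Mrc1 were below the minimum on average in every group. The summed linear level of the 14 markers was 2448 and 2155 in activated DKO against 2616 and 2652 in activated WT cells. In resting cells it was 3143 and 2675 in DKO against 3206 and 2767 in WT. The mean log2 level of the same markers was 6.38 and 6.36 in activated DKO against 6.77 and 6.65 in activated WT cells, and 6.74 and 6.60 in resting DKO against 6.95 and 6.91 in resting WT cells. On this scale DKO lay below WT without overlap in both states. The 6 tested monocyte markers also stood below 0 between the genotypes (median -0.52), as did the 5 tested plasmacytoid dendritic cell markers (median -0.51), and none was called. The monocyte marker Ccr2 and the plasmacytoid markers Siglech and Ly6d were below the minimum on average in every group. Tested plasmacytoid markers include Tcf4 and Lag3, which rose with activation (1.84 ± 0.11 and 1.95 ± 0.21), and Ccr9, which fell (-2.02 ± 0.30). The 4 tested neutrophil markers stood above 0 between the genotypes (median 0.13), and none was called. Under the block 5 of the 11 macrophage markers (C1qa, C1qb, C1qc, Hmox1 and Slc40a1), 3 of the 6 monocyte markers and 2 of the 5 plasmacytoid markers were called, all lower in DKO, against 2.6% of all genes. The part of RNA from these other cell types in the differences of Mylip and Apoe was not tested.

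By a likeness rule, the 6 named genes that followed Mylip most closely over the 8 cDC2 arrays were Ctsb (Pearson r = 0.991), Dtnbp1 (0.988), Dap (0.976), Ms4a7 (0.976), Tgfbr2 (0.97) and Emp1 (0.969). These arrays share both the genotype and the activation contrast, so r is a description. Among 10727 genes ranked this way, Nr1h3 was 405th (0.761), Apoe 649th (0.708) and Abcg1 1152nd (0.628). The 6 genes were picked as the highest, so a lower rank of the members follows from that choice. Srebf1 (-0.67) and Lpcat3 (-0.87) ran against Mylip.

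Of these like genes, Dtnbp1 (a subunit of a complex for lysosome-related organelles) is the nearest tested gene on one side of Mylip on chromosome 13. This was noticed after the values were seen. Its levels were 7.94 and 8.05 in activated DKO against 8.72 and 8.56 in activated WT cDC2, and 8.45 and 8.66 in resting DKO against 8.97 and 8.93 in resting WT cDC2. DKO lay below WT without overlap in both states, as for Mylip and for 5.07% of all genes tested. Dtnbp1 was picked because it followed Mylip on these arrays, so the shared pattern follows from the choice. The cDC1 array had the highest level of both genes (9.57 for Dtnbp1). The mean difference of Dtnbp1 was -0.52 ± 0.08 (adjusted p = 0.117 by limma). Of the next tested genes, Atxn1 on the far side of Mylip was at -0.30 ± 0.11, Jarid2 at -0.21 ± 0.28 and Cd83 at -0.11 ± 0.06, while Rbm24 was at 0.03 ± 0.06 and Fam8a1 at 0.01 ± 0.06. The labels give 1 strain name for all mice and say nothing of the alleles around Mylip, and the part of linked sequence in the Mylip difference was not tested.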

How the data were processed

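The authors' deposited intensity values, 1 linear value per transcript cluster and array, came from Affymetrix Expression Console with RMA, per the submitters' processing notes; versions are not given in the sources used here. RMA brings arrays to a shared distribution, so a difference in total RNA is not visible. Per the labels' protocols, cDNA was labelled from picogram to nanogram RNA inputs. Log2 was taken. Of 28853 clusters, 21789 had 1 symbol; for 999 genes with several clusters the one with the highest mean was used. Genes were tested where 1 or more group means exceeded 61.3 (linear), the median over these clusters, by limma 3.58.1 (R 4.3.3, lmFit and eBayes, two-sided, Benjamini-Hochberg) in 1 fit of 9 arrays with 5 group means; the procedure was tested on simulated data. The number of arrays limits the precision. Intervals are limma's 95% intervals.

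The members and lists were chosen with earlier results of these data known. Named genes were the members, Batf, Batf3, the sterol genes Srebf2, Idi1 and Insig1, up to 4 called genes per list (or 2 with the smallest p), and the 6 genes most like Mylip; the neighbours of Mylip and the interferon-stimulated list were added after values were seen. Alternatives were quantile and median scaling, a log offset of 16, 2 other filters, the mean of a gene's clusters, a variance trend, cDC2 arrays alone, the replicate block and leaving out each array.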

Additional observations from a re-analysis of the deposited data

How the results depend on the processing

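With 2 arrays per cDC2 group and 1 for cDC1, and log2 levels near the minimum for Abca1 and Rxra, small changes could not be seen. The absence of a genotype call among the members other than Mylip held under every alternative except one: with the replicate number as a block, 1 member (Abcg1, -0.49, adjusted p = 0.0345 by limma) was called in the mean of both states. Same-numbered arrays deviated together (r from 0.454 to 0.695 over 6 group pairs), but with 2 numbers this is a hint from the data, not the design; under this replicate block 599 genes were called in the mean of both states, 79 in resting and 61 in activated cells, against 2 in each without it. Under quantile normalization 2 members (Abcg1 and Nr1h3) in place of 1 were called in cDC1 against cDC2. It also turned the sign of small, uncalled values: the activation differences of Abcg1 became 0.0178 in WT cells and 0.00490 in the mean, those of Apoe became 0.0339 in WT cells, 0.0318 in DKO cells and 0.0328 in the mean, and the differences of the activation responses became -0.0259 for Abcg1 and -0.00211 for Apoe. The cause was not tested. Leaving out 1 array moved the number of members called with activation to between 0 and 1 in WT cells (3 with all arrays) and between 0 and 3 in DKO cells (2 with all arrays). It turned signs within these ranges: Srebf1 between genotypes from -0.182 to 0.0590 in activated cells and from -0.0153 to 0.105 in the mean; Abcg1 with activation from -0.49 to 0.26 in WT cells, from -0.309 to 0.0847 in DKO cells and from -0.301 to 0.0728 in the mean; Apoe with activation in DKO cells from -0.198 to 0.0237; and the difference of the activation responses from -0.37 to 0.38 for Abcg1, from -0.0914 to 0.131 for Apoe, from -0.446 to 0.0102 for Mylip and from -0.17 to 0.43 for Nr1h3. Mylip stood lower in DKO under every alternative, from -1.60 to -1.15 in activated and from -1.36 to -0.96 in resting cells with 1 array left out. Genes called with activation numbered 63 in WT cells without WT activated replicate 2 (1131 with all arrays), 217 in DKO cells without DKO resting replicate 2 (1472 with all arrays) and 2128 in the mean without DKO activated replicate 1 (3472 with all arrays). Under the replicate block they numbered 3791 in WT cells, 4080 in DKO cells and 5656 in the mean. Genes called in cDC1 numbered 798 without WT resting replicate 1 (1464 with all arrays). Between genotypes, in the mean of both states, 3 genes were called without the brightness filter and 4 without WT resting replicate 1 or without DKO resting replicate 1, against 2 with all arrays; with 1 array left out, 0 to 6 genes were called in resting cells and 0 in activated cells.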
